A study of Mus musculus with 6 samples.

Results

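The histone genes of mouse muscle satellite cells, the resident stem cells of skeletal muscle, were compared between freshly sorted cells and cells grown for 5 days. Members were chosen by symbol among the genes to which the platform annotation gives a probe set of their own: 37 histone genes of 19938 genes measured in this way. Of these, 27 were classed by symbol as clustered genes (5 linker histone H1, 4 H2A, 9 H2B, 3 H3 and 6 H4 genes). These 27 include the testis genes H1f6, H2ac1 and H2bc1. The other 10 were classed as variant genes (3 H1, 6 H2A and 1 H3). Where a gene had several probe sets, the probe set was selected on its mean over the 6 arrays, which made a choice for H2az1 alone. The assembly used for naming holds 76 protein-coding symbols of this kind. Of these, 40 had no probe set of their own, and 37 of the 40 were read by probe sets shared with other, near-identical genes, which are described after the single genes.

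Both groups came from 2-month-old C57BL/6J mice. Cells positive for B1-Integrin and CXCR4, and negative for CD45, CD31, CD11b, Ter119 and Sca1, were taken by flow cytometry from resting hind-limb, abdominal and triceps muscle. The 3 fresh arrays carry RNA of these cells directly after the sort, and the 3 cultured arrays RNA of such cells after 5 days on collagen and laminin in 20% horse serum with bFGF, a growth factor for satellite cells, at 5 ng/ml each day. The labels name no genotype, transgene or drug that differs between the groups. Which animal an array came from, and whether fresh and cultured arrays of 1 number share it, is not in the labels. A p-value here therefore rests on the variation among these arrays, which may be partly technical.

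Histones package DNA into nucleosomes, and a dividing cell must make a new set for each copy of its genome. Most clustered genes supply that set. They lie side by side, have no introns and are transcribed mainly in S phase. Their mRNAs end in a stem-loop in place of a poly(A) tail. Variant histones such as H2A.Z, macroH2A and H3.3 come from ordinary polyadenylated mRNAs made throughout the cell cycle. They are placed at genes or silent chromatin. The sources used here do not give whether RNA was primed from poly(A) tails or at random before labelling. Fresh satellite cells of resting muscle are largely quiescent, and cells in this medium enter the cell cycle.

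Each value is a log2 expression value, and a log2 fold change is the cultured mean minus the fresh mean, given with the standard error from limma. Adjusted p-values are Benjamini-Hochberg values over all 19938 genes, and a gene was called at an adjusted p of 0.05. Over all genes 0.953% were called higher in culture and 3.37% lower. The level that 95% of 1194 olfactory and vomeronasal receptor genes did not exceed, 3.21 on fresh and 3.32 on cultured arrays, served as background. Levels of different probe sets are not comparable with each other, so only changes are compared between genes. In bulk RNA, fewer expressing cells and less RNA per cell cannot be told apart.

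Facts of the arrays bear on all that follows. All 11 satellite cell markers, among them Pax7 and Myf5, lay above background on the fresh arrays. Their log2 levels summed to 69.0 to 74.9 on fresh and 48.7 to 54.3 on cultured arrays. Of the 11, 7 were called lower, among them Pax7 (-1.33), Myf5 (-1.91) and Chodl (-5.90), whose cultured mean lay below background. The other 4 were not called, and of these Itga7 alone had a fold change above 0 (0.22). Some markers of other cells also differed. The 4 measured fibro-adipogenic markers summed to 21.9 to 24.9 fresh and 13.6 to 14.4 cultured. Of these, Dcn and Dpt were called lower (log2 fold changes of -4.52 and -5.02), while Pdgfra (0.27) and Col1a1 (-0.13) were not called. The 5 mast cell and basophil markers summed to 10.3 to 11.2 fresh and 13.4 to 14.8 cultured. The 4 tendon markers, none of them called, summed to 13.2 to 22.3 fresh and 15.1 to 15.7 cultured, with fresh array 1 the highest. Tnmd, Thbs4 and Fmod were at 4.86, 6.11 and 6.08 there and at most at 2.93, 3.89 and 3.35 on the other fresh arrays. Scx differed from these: it was at 5.26, 5.23 and 4.69 fresh and at 6.22, 5.59 and 5.95 cultured (0.86), with separate groups. Of the mast cell and basophil markers all 5 were at background fresh, and 4 of 5, Cpa3 among them, stayed there in culture. The other, Mcpt8, was called higher, from a mean of 2.20 fresh to 5.30 cultured (log2 fold change of 3.09). On every fresh array 4 of 5 endothelial and 4 of 6 leukocyte markers were at background. Of the rest, the endothelial marker Tek was called lower (-0.76), and the leukocyte markers Cd68 (-0.60) and Cd3e (0.01) were not called. Bright genes were dimmer on cultured arrays 2 and 3: genes with a fresh mean of 7 to 9 had a median log2 fold change of -1.09 (450 genes), those of 9 to 11 one of -1.25 (134 genes), and those under 5 one of 0.06. The part of these markers and of this brightness pattern in the histone results was not tested. Equalising the array distributions by quantile normalization moved the share of called genes that were higher from 22.1% to 43.8%, so values after that step are given beside the results whose call or direction it changed and beside the larger shifts.

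Clustered histone genes that passed the test were mostly higher in culture. Of the 27, 7 were called higher (H2ac4, H2bc3, H1f1, H1f5, H2ac1, H2bc14 and H2ac15) and 1 lower (H2bc4), and 19 did not pass. Their median log2 fold change was 0.34, against 0.04 over all genes. In 13 clustered genes all 3 cultured arrays lay above all 3 fresh arrays, and in 2 below, where 12.9% of all genes were separated upward and 10.3% downward. Of the 10 variant genes none was called higher and 1, H2az2, was called lower. Their median was -0.03, with 2 separated upward and 2 downward. At an unadjusted p of 0.05 the variant genes gave 2 higher and 2 lower, and the clustered genes 13 higher and 1 lower, where 8.58% of all genes were higher and 9.06% lower. The difference between the classes was not tested. Background holds part of the clustered class: 8 of its 27 genes lay below background in both groups. All 10 variants were above it in at least 1 group, Macroh2a2 only just.

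**Figure D1:**
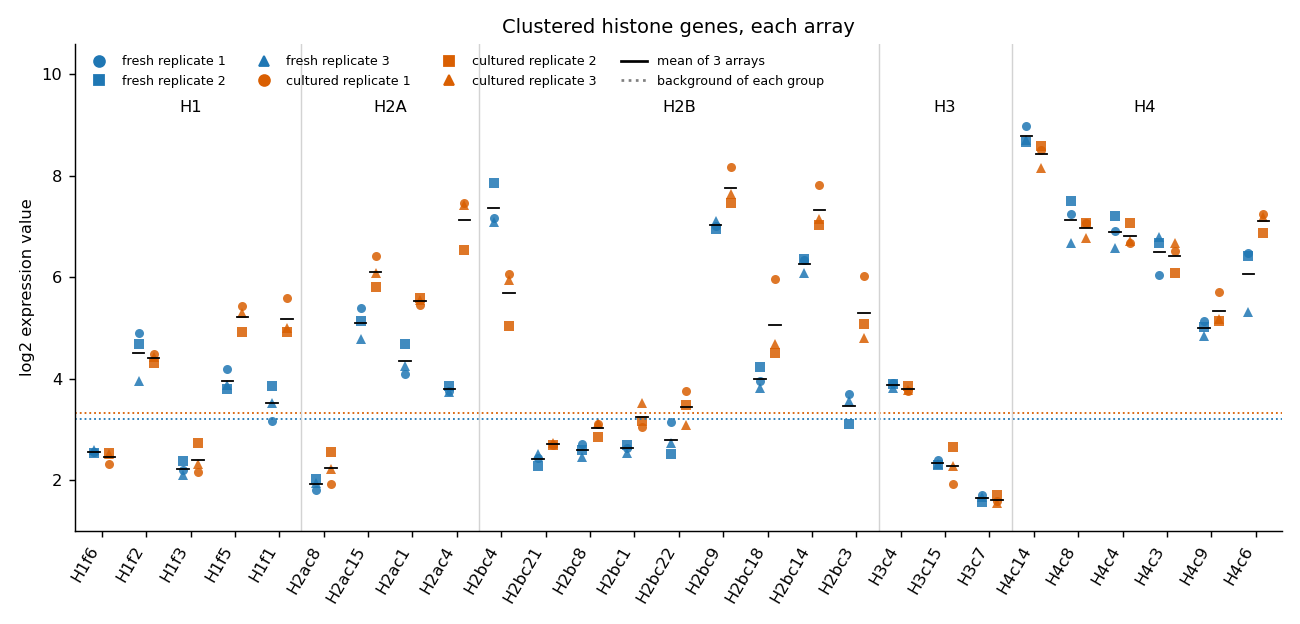
Log2 expression value (vertical axis) of the 27 clustered histone genes on each of the 6 arrays, by family, with fresh arrays in blue and cultured arrays in orange, black bars at the group means and dotted lines at the background of each group (3.21 fresh, 3.32 cultured). H2ac4 moved from 3.75 to 3.87 on the fresh arrays to 6.53 to 7.46 on the cultured arrays, H2bc4 lay lower on all 3 cultured arrays, and the 3 H3 genes overlapped between the groups.

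Sequences upstream of 5 members are shown for what the called genes share before their start sites: the neighbours H2ac4 and H2bc3 with the 2 largest fold changes, both linker genes that rose, and the variant that fell. Each is the 150 bases before the gene's start in RefSeq's mouse assembly GRCm38.p6, 5′ to 3′ on the gene's own strand, with capitals marking the octamer ATTTGCAT, CCAAT and TATAA on either strand (overlapping matches run together, as in the last capitals of H1f5). The octamer is known as a binding sequence of Oct factors in H2B promoters, CCAAT as that of NF-Y, and TATAA as the core of the TATA box. H2ac4 lies at chr13:23750938-23751087 (plus strand), H2bc3 at chr13:23746584-23746733 (plus strand), H1f1 at chr13:23763518-23763667 (plus strand), H1f5 at chr13:21780626-21780775 (minus strand) and H2az2 at chr11:6444444-6444593 (minus strand).
H2ac4: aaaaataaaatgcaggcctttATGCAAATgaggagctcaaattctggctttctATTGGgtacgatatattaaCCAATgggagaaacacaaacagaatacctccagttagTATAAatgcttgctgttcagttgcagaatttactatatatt
H2bc3: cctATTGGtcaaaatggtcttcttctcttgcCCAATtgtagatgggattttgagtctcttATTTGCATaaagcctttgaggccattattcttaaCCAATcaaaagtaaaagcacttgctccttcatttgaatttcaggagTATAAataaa
H1f1: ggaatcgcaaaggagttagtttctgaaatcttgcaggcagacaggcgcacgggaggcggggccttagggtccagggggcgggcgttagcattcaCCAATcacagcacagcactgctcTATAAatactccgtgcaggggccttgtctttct
H1f5: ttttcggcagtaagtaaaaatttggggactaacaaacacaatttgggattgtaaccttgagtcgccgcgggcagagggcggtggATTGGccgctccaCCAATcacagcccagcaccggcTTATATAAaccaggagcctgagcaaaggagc
H2az2: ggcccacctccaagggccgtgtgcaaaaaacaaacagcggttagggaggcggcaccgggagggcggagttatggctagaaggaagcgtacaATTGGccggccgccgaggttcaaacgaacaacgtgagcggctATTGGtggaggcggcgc
H2ac4 and H2bc3 carry the octamer, CCAAT and TATAA, the linker genes carry CCAAT and TATAA without the octamer, and H2az2 carries CCAAT alone.

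Promoters were found for 31 of the 37 members, and the motifs were sought in the 250 bases before the start on both strands. The octamer was present before 8 of 23 clustered genes, all of them H2A (3 of 4) or H2B (5 of 7) genes, and before none of 8 variant genes, with 1.6% of the 32851 mouse promoters of the same length holding it. CCAAT was present before 19 of 23 clustered and 4 of 8 variant genes, against 33.8% of all promoters. TATAA was present before 16 of 23 clustered and none of the variant genes, against 22.8% of all promoters. The 7 clustered genes called higher held CCAAT in 7 cases, TATAA in 5 and the octamer in 4. These matches describe the sequence only, and all 3 motifs also occur before clustered members that did not pass.

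H2A gave the largest single change. H2ac4, which encodes a replication-dependent H2A, stood at 3.76, 3.87 and 3.75 on fresh arrays and at 7.46, 6.53 and 7.42 on cultured arrays. The groups were far apart, with a log2 fold change of 3.34 ± 0.25, a 10.2-fold rise (adjusted p = 0.000282) that was 3.79 on the log2 scale after quantile normalization. H2ac15, another replication-dependent H2A gene, was at 5.40, 5.15 and 4.78 fresh and at 6.42, 5.81 and 6.08 cultured. All cultured values were the higher ones, and the rise was 0.99 ± 0.22 (adjusted p = 0.0466), or 1.37 after quantile normalization. H2ac1, which encodes the testis H2A, measured 4.10, 4.69 and 4.25 fresh and 5.46, 5.60 and 5.56 cultured. It rose by 1.19 ± 0.18 (adjusted p = 0.0092) and was above background in both groups. The fourth H2A gene, H2ac8, was below background throughout, at 0.31 ± 0.18.

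H2B genes went both ways. H2bc3, the neighbour of H2ac4, was at 3.71, 3.11 and 3.56 fresh and at 6.02, 5.09 and 4.81 cultured. The lowest cultured value exceeded the highest fresh value by a wide margin, and the rise was 1.85 ± 0.32 (adjusted p = 0.0167). H2bc14 measured 6.33, 6.36 and 6.09 fresh and 7.81, 7.04 and 7.14 cultured, a rise of 1.07 ± 0.22 (adjusted p = 0.0384) that became 1.79 after quantile normalization. H2bc9 was at 7.01, 6.95 and 7.11 fresh and at 8.18, 7.47 and 7.65 cultured. Its groups did not overlap, but 0.74 ± 0.20 did not pass (adjusted p = 0.0890), while after quantile normalization it was 1.58 (adjusted p = 0.0011).

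H2bc4 was the clustered gene that fell. Its values were 7.16, 7.87 and 7.08 on fresh and 6.07, 5.04 and 5.96 on cultured arrays, so that every fresh array exceeded every cultured array. The log2 fold change was -1.68 ± 0.32, a 3.21-fold fall (adjusted p = 0.0268), and it remained -1.11 (adjusted p = 0.0283) after quantile normalization. For comparison, genes as bright as H2bc4 on the fresh arrays had the median of -1.09 given above. Polyadenylated transcripts are known for this gene besides the stem-loop form. The part of transcript form in its fall was not tested. The neighbouring testis linker gene H1f6 stayed below background at -0.11 ± 0.13.

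H2bc18 was at 3.95, 4.24 and 3.81 fresh and at 5.96, 4.51 and 4.68 cultured. Its change of 1.05 ± 0.36 did not pass (adjusted p = 0.177) and was 0.60 without cultured array 1 (adjusted p = 0.106). After quantile normalization it was 1.07 and passed (adjusted p = 0.0384). The testis H2B gene H2bc1, next to H2ac1, was at 2.63, 2.70 and 2.55 fresh and at 3.05, 3.16 and 3.52 cultured. Both means lay below background, and 0.62 ± 0.16 did not pass (adjusted p = 0.0835), except without cultured array 1 (0.72, adjusted p = 0.0456) and with array weights (0.76, adjusted p = 0.0213). H2bc22 had 0.65 ± 0.23 (adjusted p = 0.185), and H2bc8 and H2bc21, below background in both groups, had 0.44 ± 0.15 and 0.29 ± 0.13.

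Among clustered linker histones, which bind the DNA between nucleosomes, 2 of 5 rose. H1f1 was at 3.17, 3.86 and 3.52 fresh and at 5.60, 4.92 and 5.00 cultured, a rise of 1.66 ± 0.24 (adjusted p = 0.0080). H1f5 was at 4.19, 3.81 and 3.88 fresh and at 5.43, 4.93 and 5.31 cultured, a rise of 1.26 ± 0.18 (adjusted p = 0.0078). For both, the fresh and cultured ranges were separate by more than the spread within either. H1f2, a linker gene for which polyadenylated transcripts are known too, was at 4.90, 4.69 and 3.96 fresh and at 4.49, 4.32 and 4.43 cultured. Its cultured values fell inside the fresh range, at -0.10 ± 0.24. H1f3 was below background, at 0.18 ± 0.18.

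None of the H3 and H4 genes read singly was called. Of the 3 H3 genes with a probe set of their own, H3c4 was at 3.91, 3.90 and 3.81 fresh and at 3.76, 3.86 and 3.79 cultured, a change of -0.07 ± 0.12. H3c7 and H3c15 were below background in both groups. The 6 H4 genes were all above background. H4c14 was at 8.97, 8.68 and 8.70 fresh and at 8.51, 8.59 and 8.16 cultured, at -0.36 ± 0.17 (adjusted p = 0.319), and its direction flipped to 0.67 after quantile normalization and 0.51 after cyclic loess. H4c6 was at 6.48, 6.42 and 5.32 fresh and at 7.26, 6.88 and 7.19 cultured. Its groups were separate, but 1.04 ± 0.31 did not pass (adjusted p = 0.121), was 0.66 without fresh array 3 and was 1.74 after quantile normalization (adjusted p = 0.0108).

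H4c3, H4c4 and H4c8 had -0.07, -0.08 and -0.17 as deposited and 0.56, 0.72 and 0.67 after quantile normalization, and H4c9 had 0.34 and 0.55. For the 6 H4 genes the median was -0.07 as deposited, 0.67 after quantile normalization and 0.40 after cyclic loess, with 2, 6 and 6 of 6 genes above 0. The direction of H4 thus depends on the scaling of the arrays. H2A, H2B and H1 medians did not change sign: 1.09, 0.65 and 0.18 as deposited became 1.42, 0.58 and 0.17. After quantile normalization 10 of the 27 clustered genes were called higher and 1 lower, where 3.5% of all genes were called higher and 4.5% lower.

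**Figure D2:**
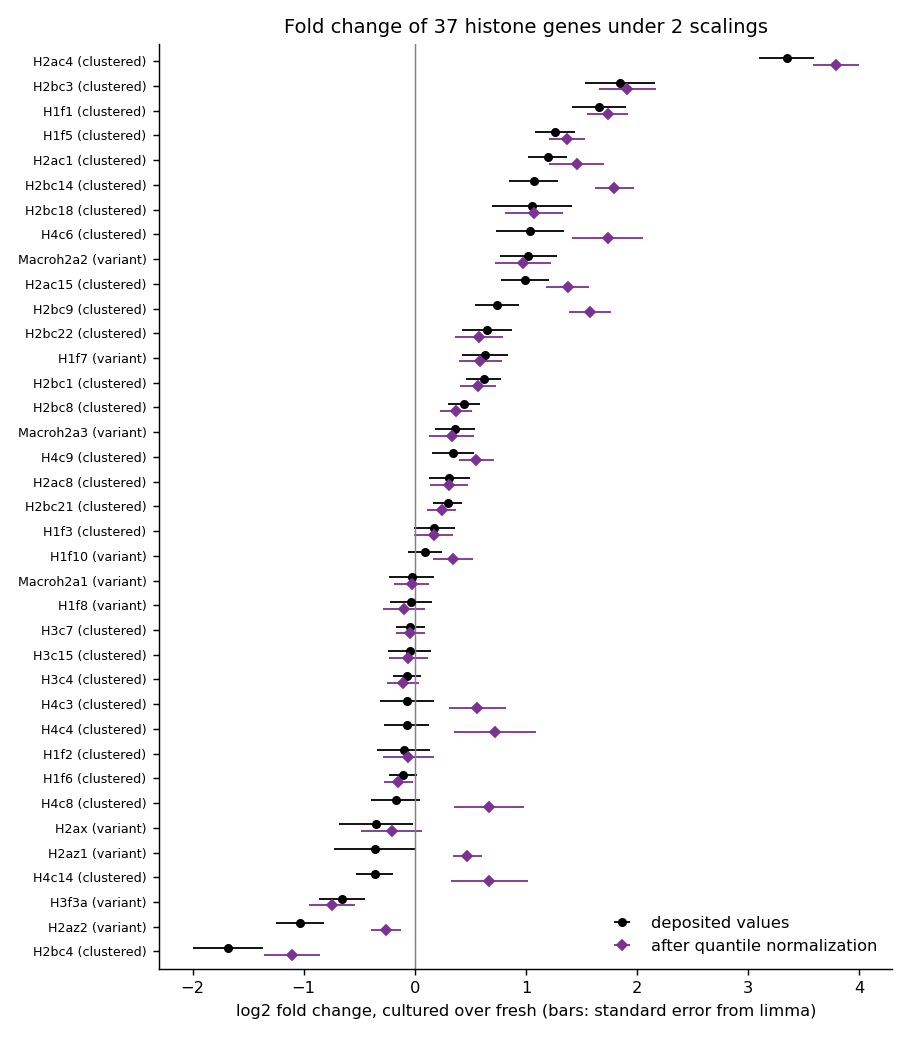
Log2 fold change of cultured over fresh (horizontal axis) for each of the 37 histone genes, as deposited (black circles) and after quantile normalization (purple diamonds), with bars for the standard error from limma over 3 fresh and 3 cultured arrays. H2ac4 leads at 3.34, H2bc4 is last at -1.68, and H4c14 and H2az1 lie left of 0 as deposited and right of it after normalization.

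How firmly each call stood differed between genes. H2ac4, H1f1 and H1f5 passed in all 16 alternatives run, leaving out each array included. H2bc3 was lost without fresh array 2 (adjusted p = 0.0795) or 3 (0.0729), and H2ac1 without fresh array 3 or cultured array 3 (0.0535 each). H2bc14 was lost without fresh array 1, 2 or 3 or cultured array 3 (0.0977 to 0.149), and H2bc4 without the same arrays (0.0666 to 0.0963). H2ac15 was lost without any single array but cultured 2 (0.0533 to 0.162). Their fold changes kept their sign in each of these fits. As a class, 3 to 8 clustered genes passed when single arrays were left out, with the fewest, 3, without fresh array 3, 4 without fresh array 2 or cultured array 3, and 5 without fresh array 1.

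Clustered genes lie close together, and 10 pairs of next neighbours were both measured. H2bc3 and H2ac4, side by side, both rose, and of the adjacent testis pair H2ac1 passed and H2bc1 did not. H2bc9, H3c7, H4c6 and H1f3 form a run of measured neighbours with values of 0.74, -0.04, 1.04 and 0.18, of which H3c7 and H1f3 were below background. H2bc4, H1f6 and H4c3 form another, at -1.68, -0.11 and -0.07.

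Many histone genes are so alike that the array reads them together, and 20 of the 37 members also appear among the genes of a shared probe set. The annotation gives 32 probe sets to several genes with at least 1 histone among them, and these were looked at after the single-gene values were known and tested over all 35556 probe sets, of which 0.38% were called higher and 2.26% lower. Probe sets of 1 family read overlapping groups of genes, so they are repeated readings of 1 pool and not independent. No value can be given to a single gene. An H2B and an H4 probe set each repeated another of its family, with identical values on every array.

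The 10 probe sets of the replication-dependent H3 genes, each given to 12 H3 genes, had the largest upward changes among the pooled families. Their median was 7.15, 7.50 and 6.43 on fresh and 9.18, 8.33 and 8.71 on cultured arrays, and in all 10 the groups did not overlap. Log2 fold changes ran from 1.57 to 1.97 with a median of 1.78, and adjusted p-values from 0.0454 to 0.101, so that 2 of 10 were called higher. Fresh array 3 was the lowest, and without it the median was 1.47 with no probe set called. Without the other arrays in turn the calls were 2 when cultured array 1 was left out and 0 otherwise. After quantile normalization all 10 were called (median 2.43, adjusted p from 0.0045 to 0.0120), where 1.73% of all probe sets were called higher.

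The pooled readings of the other clustered families had smaller changes, none past the test. The 7 H2B probe sets, each given to 14 or 15 H2B genes, had a median of 6.62, 6.66 and 6.08 fresh and 7.67, 6.60 and 7.19 cultured. The median of cultured array 2 lay among the fresh medians, and changes of 0.66 to 0.78 did not pass (adjusted p from 0.185 to 0.378), although all 7 were called after quantile normalization at 1.10 to 1.29. Both H2A probe sets, each given to 16 H2A genes and a few others, had 0.43 and 0.64 and did not pass, with 1 of 2 called after quantile normalization. The 5 H4 probe sets given to 11 H4 genes had medians of 8.35, 8.77 and 8.12 fresh and 8.95, 8.40 and 8.43 cultured. Their changes of 0.13 to 0.20 did not pass, nor did 0.89 to 0.94 after quantile normalization. The remaining H4 probe set, given to 2 genes, and the probe set that mixes H2B and H1 genes lay near background and did not pass.

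**Figure D3:**
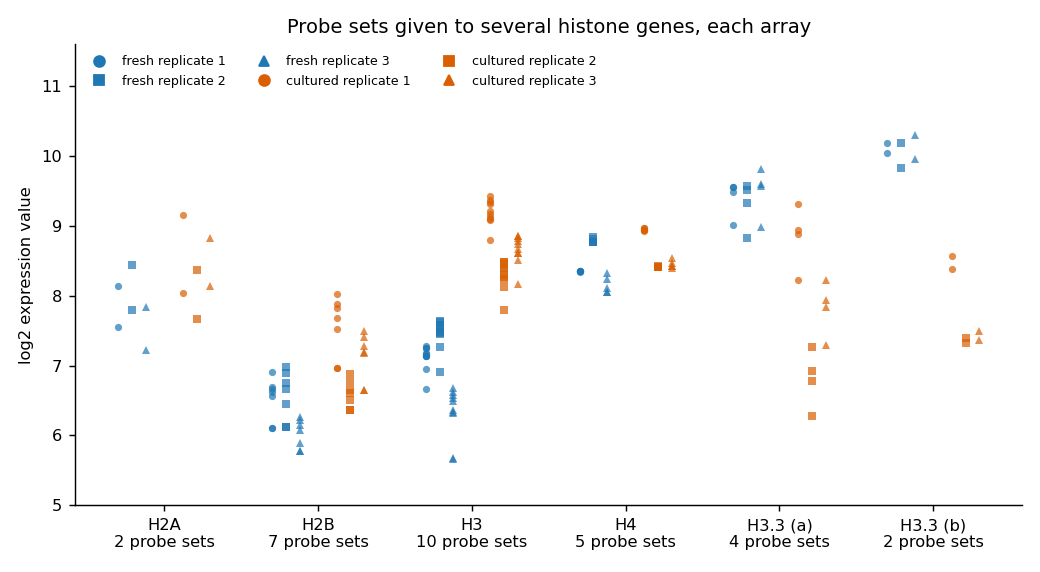
Log2 expression value (vertical axis) of the 30 bright probe sets given to several histone genes, on each array, for pooled H2A, H2B, H3 and H4 genes and for H3.3 from H3f3a (a) and H3f3b (b), fresh in blue and cultured in orange. All 10 H3 probe sets lay higher on every cultured array (array medians 8.33 to 9.18) than on every fresh array (6.43 to 7.50), and all 6 H3.3 probe sets lay lower in culture.

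H3.3, the variant H3 that replaces H3 outside S phase, is made from H3f3a and H3f3b, and each is read by probe sets that the annotation also gives to a predicted gene. Both H3f3b probe sets were called lower: their medians were 10.11, 10.00 and 10.13 fresh and 8.47, 7.35 and 7.43 cultured, and the changes were -2.40 and -2.25 (adjusted p = 0.0181 for each). After quantile normalization these were -1.59 and -1.50 (adjusted p from 0.0019 to 0.0030). They passed without cultured array 1 and missed the threshold without any other single array (adjusted p from 0.0517 to 0.0886). The 4 H3f3a probe sets had medians of 9.52, 9.42 and 9.59 fresh and 8.91, 6.85 and 7.89 cultured. Their groups did not overlap, but changes of -1.67 to -1.38 did not pass (adjusted p from 0.148 to 0.237), and were -1.05 to -0.66 after quantile normalization. Without cultured array 1 all 4 passed (median -2.12). Of these 4, 3 lay in the range of fresh level whose median over all genes was -1.25 and 1 in that of -1.09. The probe set given to H3f3a alone was dim, at 3.63, 3.38 and 3.60 fresh and 3.21, 2.47 and 2.95 cultured, with the cultured mean within background, at -0.66 ± 0.20 (adjusted p = 0.141). It passed after cyclic loess (-0.73, adjusted p = 0.0494) and without cultured array 1 (-0.82, adjusted p = 0.0397).

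**Figure D4:**
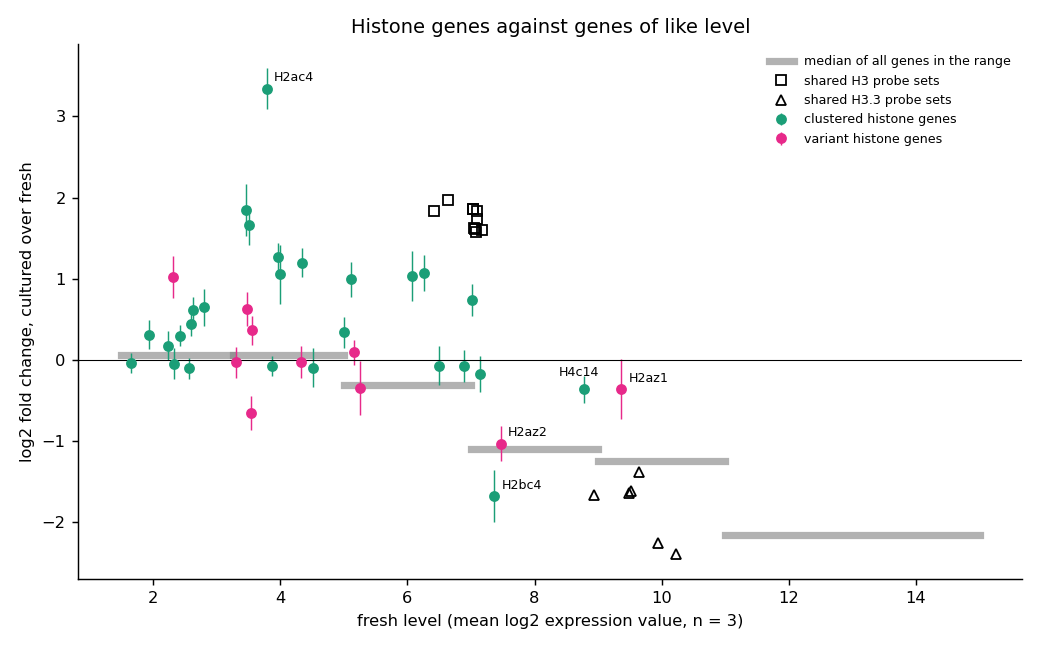
Log2 fold change of cultured over fresh (vertical axis, bars for the standard error from limma) against the fresh mean of the same probe set (horizontal axis, log2, n = 3 arrays) for clustered histone genes (green), variant histone genes (pink) and shared H3 and H3.3 probe sets (open symbols, no error bars drawn), with grey bars at the median fold change of all genes in each range of fresh level. The shared H3 probe sets, at 1.57 to 1.97, lie above the grey median of -1.09 or -0.32 of their range, H2az2 at -1.03 lies close to its median, and H4c14 and H2az1 lie below 0 here and above 0 after quantile normalization.

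H2A.Z, a variant placed at promoters and enhancers, is encoded by 2 genes. H2az2 was at 7.46, 7.46 and 7.49 fresh and at 6.91, 6.08 and 6.31 cultured. The fresh values were almost equal and all cultured values lower, a fall of -1.03 ± 0.22 (adjusted p = 0.0396). The call ended after quantile normalization (-0.26, adjusted p = 0.328), held after cyclic loess (-0.57, adjusted p = 0.0330), and was lost without any array but cultured 1 (adjusted p from 0.0751 to 0.164). H2az1 was at 9.31, 9.35 and 9.43 fresh and at 9.91, 8.25 and 8.85 cultured. Its cultured arrays fell on both sides of the fresh arrays: -0.36 ± 0.37 did not pass (adjusted p = 0.682), and its direction flipped to 0.47 after quantile normalization (adjusted p = 0.0669), 0.69 after cyclic loess (adjusted p = 0.0210) and 0.018 without cultured array 2. A further probe set of H2az1 gave -0.43 ± 0.38 as deposited.

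H2ax encodes the H2A that is phosphorylated at DNA breaks. It was at 5.68, 5.04 and 5.04 fresh and at 5.65, 4.59 and 4.46 cultured, ranges that overlap, with -0.35 ± 0.33 (adjusted p = 0.656). Macroh2a1 encodes a macroH2A, a large variant linked to silent chromatin, and was at 4.09, 4.49 and 4.43 fresh and at 4.67, 4.09 and 4.15 cultured (-0.03 ± 0.20). Macroh2a2 was at 2.77, 2.15 and 2.03 fresh and at 3.59, 3.52 and 2.90 cultured. All cultured values were higher, but 1.02 ± 0.26 did not pass (adjusted p = 0.0766). The fresh mean was below background, and the cultured mean of 3.335 lay only just above the cultured background of 3.323. Macroh2a2 passed after quantile normalization (0.97, adjusted p = 0.0464) and cyclic loess (0.96, adjusted p = 0.0469), and without fresh array 1 (1.25, adjusted p = 0.0471). Macroh2a3, listed by RefSeq as a transcribed pseudogene, had 0.36 ± 0.18 and did not pass.

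Variant linker genes did not pass. H1f10, which encodes the widely made H1x, was at 5.27, 5.28 and 4.92 fresh and at 5.31, 5.12 and 5.32 cultured (0.09 ± 0.15). The spermatid gene H1f7 was at 3.68, 3.70 and 3.04 fresh and at 4.30, 3.96 and 4.05 cultured, with separate groups and 0.63 ± 0.21 (adjusted p = 0.163). The oocyte gene H1f8 stayed near background at -0.03 ± 0.19.

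**Figure D5:**
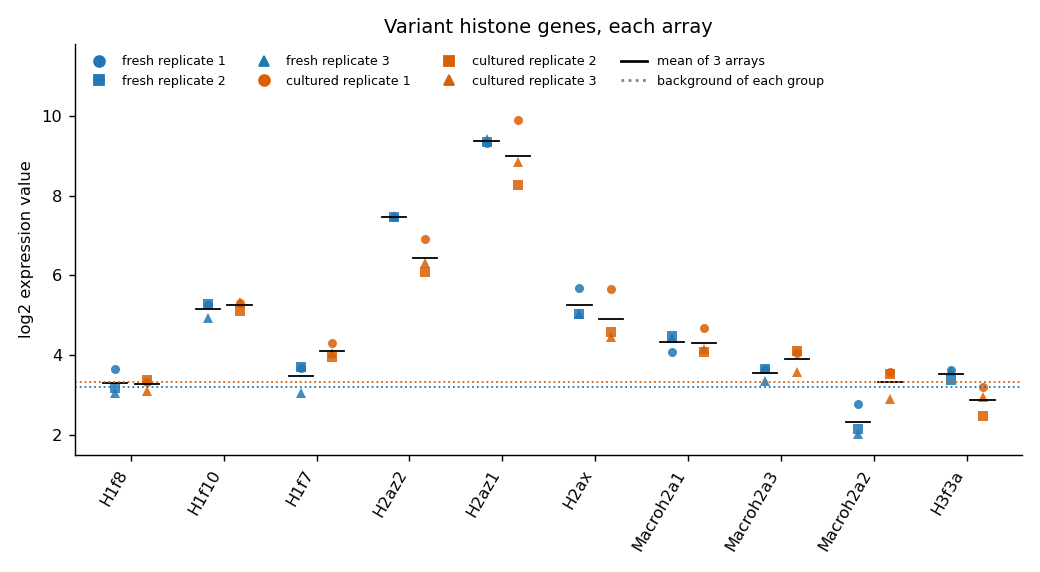
Log2 expression value (vertical axis) of the 10 variant histone genes on each of the 6 arrays, fresh in blue and cultured in orange, with black bars at the group means and dotted lines at the background of each group. H2az2 lay between 7.46 and 7.49 on fresh arrays and between 6.08 and 6.91 on cultured arrays, and H2az1 spread from 8.25 to 9.91 on the cultured arrays alone.

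Genes that make histone mRNA or carry histones to DNA were read from the same fit. Of the 51 measured, in 5 groups, none passed the limma test, and 16 had an unadjusted p under 0.05 (9 higher, 7 lower), where 17.6% of all genes had one, with a median log2 fold change of 0.20. In the group for stem-loop mRNA, Slbp, the protein that binds the stem-loop, had the largest change: 6.85, 7.24 and 7.23 fresh and 6.49, 6.58 and 6.01 cultured, at -0.75 ± 0.20 (adjusted p = 0.0873). Its size depended on the scaling and on the probe set: it was -0.02 after quantile normalization (adjusted p = 0.981), -0.33 after cyclic loess, -0.96 with array weights (adjusted p = 0.0187), -1.13 as the mean of its probe sets (adjusted p = 0.0131) and -1.51 for the dimmest of them (adjusted p = 0.0098). The other 12 genes of that group had values above 0, up to 0.38. Among chaperones that carry new H3 and H4 to replicating DNA, Nasp had the largest change, at -0.76 ± 0.43 (adjusted p = 0.416), with cultured array 1 above and arrays 2 and 3 below the fresh arrays. Without cultured array 1 it was -1.33 and passed (adjusted p = 0.0020), without cultured array 2 or 3 it was -0.49 or -0.47, and after quantile normalization it was -0.31, or -0.44 after cyclic loess.

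The other groups likewise gave no call as deposited. Ubn1, a subunit of the complex that deposits H3.3, was at 3.34, 4.65 and 4.39 fresh and at 3.15, 3.28 and 2.76 cultured (-1.06 ± 0.33, adjusted p = 0.140). It passed without fresh array 1 (-1.46, adjusted p = 0.0163) and with array weights (-1.30, adjusted p = 0.0330). The H3-H4 chaperone gene Spty2d1 was at 4.39, 5.02 and 4.11 fresh and at 3.39, 3.85 and 3.39 cultured (-0.97 ± 0.25, adjusted p = 0.0857), and passed after quantile normalization (-0.94, adjusted p = 0.0450) and cyclic loess (-1.04, adjusted p = 0.0383) and with array weights (-1.05, adjusted p = 0.0299). Cenpa, which encodes the H3 variant of centromeres and lies outside the symbols that chose the members, was at 4.19, 4.11 and 4.78 fresh and at 5.68, 5.11 and 5.24 cultured (0.98 ± 0.23, adjusted p = 0.0602). It passed after quantile normalization (1.13, adjusted p = 0.0056) and cyclic loess (1.01, adjusted p = 0.0144), with array weights (adjusted p = 0.0322), without dim genes (adjusted p = 0.0495) and without fresh array 3 (1.19, adjusted p = 0.0457). After quantile normalization 4 of the 51 were called higher and 1 lower, where 3.5% of all genes were called higher and 4.5% lower.

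Of 18 S phase genes read beside the histones, 5 were called higher, none lower, and 17 had a fold change above 0, with a median of 0.85. Over all 19938 genes 0.953% were called higher and 3.37% lower, and 11284 had a fold change above 0. The S phase count was 10 higher after quantile normalization, where 3.5% of all genes were called higher and 4.5% lower. With array weights it was 10 higher and 1 lower, where 585 of all genes were called higher and 1157 lower. The S phase count was 2 without fresh array 2 or 3, and 3 without fresh array 1 or cultured array 3. It was 8 higher and 1 lower without cultured array 1, and 9 without cultured array 2. Those fits called 51 to 279 of all genes higher and 380 to 1278 lower. The 5 genes were Pclaf, a partner of the replication clamp (3.95 ± 0.59, adjusted p = 0.0087), the nucleotide enzyme gene Rrm2 (2.79 ± 0.36, adjusted p = 0.0045), the S phase cyclin Ccna2 (1.93 ± 0.25, adjusted p = 0.0044), the helicase subunit Mcm6 (1.27 ± 0.27, adjusted p = 0.0405) and the proliferation marker Mki67 (1.20 ± 0.25, adjusted p = 0.0429). Pcna, the replication clamp, was at 9.03, 9.004 and 9.17 fresh and at 9.07, 7.31 and 7.52 cultured, with overlapping groups and -1.10 ± 0.42 (adjusted p = 0.220). Of the 18 genes, 12 had a fresh mean above background, and all 18 a cultured mean above it. Fresh means of Pclaf and Ccna2, 2.81 and 2.98, lay below background, which limits what the size of their changes can show. Rrm2 and Ccna2 passed without each array. Pclaf was lost without fresh array 2 or 3, and Mcm6 and Mki67 without any fresh array or cultured array 3 (adjusted p up to 0.0524, 0.147 and 0.172).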

How the data were processed

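RNA of 3 fresh and 3 cultured samples was biotin-labelled and hybridised to Affymetrix whole-transcript arrays, as the labels' protocols describe. The authors deposited 1 table of log2 values for 35556 probe sets on 6 arrays. It was made with RMA and the package oligo, per the submitters' processing notes, which state no version. RMA summarises probes and compresses differences near background. The sources used here do not give the genome build. Array medians were 3.10 to 3.15, and precision is limited by having 6 arrays.

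Of the probe sets, 21789 had 1 gene in the platform annotation, 1621 had several and 12146 were unlisted. Symbols were updated through RefSeq's GRCm38.p6 gene table, which 21698 of the 21789 matched, and promoters were taken from RefSeq for the same assembly. The highest-mean probe set of each gene was kept. Near-identical histone genes can share probes, so values of single genes are uncertain to that extent.

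The test was limma 3.58.1 in R 4.3.3 (lmFit, eBayes, group as the only term), with Benjamini-Hochberg adjustment over all genes. On simulated data for 19938 genes it recovered 24, 45, 50 and 49 of 50 genes changed by 1, 2, 3 and 4 on the log2 scale, with 11 false calls. The simulated noise was normal and independent between genes and arrays. It held no brightness pattern like that of cultured arrays 2 and 3, so these rates may not hold for the deposited values. Text names the called members, the highest-mean and most changed member of each clustered family, variants above background, germ cell members and, of the supply genes, those called and the most changed of each group. Other members are named to account for the family. Correlations of same-numbered deviations from the group means were -0.09, -0.14 and 0.03, and those of other pairs ran from -0.07 to 0.15. With means of only 3 arrays these values cannot show whether arrays of 1 number are paired. Members and lists were chosen with earlier results of these data known, and shared probe sets and the promoter window after seeing the data.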

Additional observations from a re-analysis of the deposited data

How the results depend on the processing

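Beside the reported fit, 10 other settings and 6 fits that leave out an array were run. Over all genes 861 passed as reported, 1742 with array weights, 1595 after quantile normalization, 1515 after cyclic loess and 448 to 1517 when single arrays were left out. Calls among clustered genes were 8 as reported, 5 with the replicate number as a block and 3 to 8 without single arrays, and among variant genes 1, 4 after cyclic loess and 0 to 2 without single arrays. As reported the variant called was H2az2, lower. With the block, a trended, robust prior or quantile normalization, and without fresh array 1, it was Macroh2a2, higher. The block ended the calls of H2bc14 (adjusted p = 0.0540), H2ac15 (0.0505), H2bc4 (0.0792), H2az2 (0.0661) and Mki67 (0.104) and brought Macroh2a2 (0.0443) and Spty2d1 (0.0422) past the threshold. It also ended both calls among the 10 shared H3 probe sets (0.122 to 0.153) and 1 of 2 for H3f3b (0.0453 and 0.0575). Without dim genes the clustered median was 0.87. H2az1 reversed to 0.47 (quantile) and 0.69 (cyclic loess), H4c14 to 0.67 and 0.51. Without single arrays H2az1 ran from -0.81 to 0.018, H1f10 from -0.025 to 0.16, H1f8 from -0.15 to 0.15 and Macroh2a1 from -0.21 to 0.078, none of them called. The trended, robust prior ended the calls of H2bc14 (0.123), H2ac15 (0.0819) and H2az2 (0.142) and brought Macroh2a2 (0.0378) past the threshold. Keeping all single-gene probe sets ended that of H2ac15 (0.0544). The cause of these moves was not tested. For the 8 clustered genes below background in both groups, signal over background limits what a change can show.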
